A study of Mus musculus with 10 samples.

Results

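The Polo-like kinases of the mouse, Plk1, Plk2, Plk3, Plk4 and Plk5, were taken by gene name from a table of 53801 genes, and all 5 were found, each in 1 row. The family was chosen because Plk2 had differed between the sorted populations in an earlier pass over the same libraries, so the difference of Plk2 and of its relatives between the populations is given here as a description and not as a test. The libraries came from the dorsal brain of wild-type mouse embryos electroporated in utero with StarTrack reporter plasmids at embryonic day 12. Cells were dissociated and sorted at embryonic day 14 into an NG2+ and a GFAP+ population, and each population gave 5 libraries, all labelled as 1 batch. Both groups therefore come from electroporated embryos, and no unelectroporated or unsorted group was part of the comparison. Whether both groups carried the same plasmids is not known here. The sources used here do not give the promoter behind each reporter, or whether a library came from 1 embryo or from a pool. The p-values below thus measure the spread between libraries, which may be partly technical.

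Polo-like kinases are serine/threonine kinases that join a catalytic domain to a polo-box region, which docks the enzyme on its targets. Plk1 drives entry into mitosis, centrosome maturation, spindle assembly and cytokinesis, and Plk4 starts the duplication of centrioles. Plk2 and Plk3 are known as early response genes that are induced by growth factors, stress and, in neurons, synaptic activity, and Plk2 acts in the weakening of overactive excitatory synapses. Plk5 is described in the deposited annotation as an inactive kinase, and is known from differentiated neural cells rather than dividing ones. In the embryonic cortex, mitotic kinases mark the cycling progenitors that line the ventricle, while the early response members can be transcribed in cells that have left the cycle.

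The stretches of DNA just before the transcription starts of Plk1, Plk4, Plk2 and Plk3 are shown because the family divides into cell cycle and early response members, whose promoters are known to carry different elements. Each is the 150 bases before the RefSeq start on GRCm38.p6, read 5′ to 3′ on the strand of the gene. Capitals mark matches to a CCAAT box (CCAAT), a cyclic AMP response element (CRE, TGACGTCA, or its core TGACG) or an E2F site, on either strand. The E2F letters searched were TTGGCGC, then the form TTCCCGC, then the form TTCGCGC and last the form TTGCCGC.
Plk1: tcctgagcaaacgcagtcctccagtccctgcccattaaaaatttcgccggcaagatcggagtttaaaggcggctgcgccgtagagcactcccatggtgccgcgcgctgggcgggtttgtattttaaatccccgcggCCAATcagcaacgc
Plk4: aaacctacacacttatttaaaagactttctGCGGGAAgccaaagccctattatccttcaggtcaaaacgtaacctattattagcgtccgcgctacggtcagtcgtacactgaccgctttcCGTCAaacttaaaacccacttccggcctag
Plk2: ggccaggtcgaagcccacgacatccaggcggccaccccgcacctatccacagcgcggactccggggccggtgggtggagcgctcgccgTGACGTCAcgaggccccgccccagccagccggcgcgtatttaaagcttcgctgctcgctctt
Plk3: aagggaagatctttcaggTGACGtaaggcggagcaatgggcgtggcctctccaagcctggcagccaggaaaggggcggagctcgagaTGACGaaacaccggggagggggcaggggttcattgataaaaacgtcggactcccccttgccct
They lie at chr7:122159285-122159434 (plus strand), chr3:40799801-40799950 (plus), chr13:110394894-110395043 (plus) and chr4:117133964-117134113 (minus).

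The search covered 250 bases before and 50 after the start. Plk2 held a full CRE, which begins 62 bases before the start and contains a core on each strand, and a further core 22 bases after the start. The full element occurred in 1.79% of 32851 windows of the same length in the RefSeq table. Plk3 held the core, present in 20.8% of windows, at 132 and 63 bases before the start, and Plk4 held it on the opposite strand at 30 bases before. In Plk4 an E2F match on the opposite strand stood 120 bases before the start (9.57% of windows). Both Plk4 distances count from the RefSeq start, which lies 68 bases before the deposited start of the gene. Plk1 had a CCAAT box 14 bases before the start (37.4% of windows) and TTTGAA, 1 form of the cell cycle homology region (TTTGAA or TTCGAA, 19.2% of windows), 31 bases after it, beyond the stretch shown. A CCAAT box also stood 5 bases before the start of Plk5, and none of the 5 windows held a CArG box, which 1.63% of windows did. These are letter matches and were not measured as bound sites.

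Library totals ranged from 12945436 to 17569730 counts. NG2 replicate 5 stood apart, with reads for 18903 genes against 22988 to 24444 in the other 9 libraries, and its log2 CPM correlated less with the others (r of 0.919 to 0.929, against 0.968 to 0.986 among the rest, across genes). Cspg4, which encodes NG2, had a mean of 6.75 ± 1.47 CPM over the NG2 libraries and of 1.07 ± 0.356 CPM over the GFAP libraries (SD, n = 5). Gfap had 6 and 10 reads in all, so the gene that names the GFAP group was close to absent at the RNA level in both. As the promoter behind each reporter is not given, whether the sort followed the cells' own Gfap is not known. Although the labels call the cells neural stem cells, the neuronal gene Neurod6 had a mean of 1646 ± 212 CPM over the GFAP libraries and of 1968 ± 428 CPM over the NG2 libraries. In such bulk libraries, fewer cells of a type and less RNA per cell cannot be told apart.

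The 5 kinases stood at well separated levels. On the FPKM scale, which divides by gene length and depth and so allows genes to be compared, Plk1 was the most abundant at 74.1 ± 17.9 (mean ± SD over all 10 libraries), followed by Plk2 at 18.6 ± 4.85, Plk3 at 7.56 ± 1.77, Plk4 at 0.912 ± 0.728 and Plk5 at 0.0477 ± 0.0665 FPKM. No 2 neighbours in that order overlapped. The lowest Plk1 level (52.1 FPKM) lay above the highest of Plk2 (28.3 FPKM), the lowest Plk2 level (13.2) above the highest of Plk3 (11.9), the lowest Plk3 level (5.39) above the highest of Plk4 (2.81) and the lowest Plk4 level (0.273) above the highest of Plk5 (0.201). The order thus held in 10 of 10 libraries. Mean differences of log2(FPKM + 0.1), which understate the gap where levels are low, were 2.00 for Plk1 over Plk2 (SD 0.54), 1.28 for Plk2 over Plk3 (SD 0.35), 3.14 for Plk3 over Plk4 (SD 0.79) and 2.63 for Plk4 over Plk5 (SD 1.08). Each had an exact two-sided sign-flip permutation p of 0.00195, also after Benjamini-Hochberg adjustment over the 4 pairs, which is the smallest that 10 libraries allow. The order tested was taken from these same values, and with 10 of 10 libraries in 1 direction the p could only be this value. The deposited length of Plk4, 6855 bases, was well above the 3479 bases of the transcript numbered first for the gene in GENCODE M21, and that of Plk2 was 4491 against 2800 bases. With the lengths of these transcripts, an alternative chosen after seeing the data, the mean levels of Plk2 and Plk4 became 29.8 and 1.80 FPKM, and the order was the same, with log2 differences of 1.32 for Plk1 over Plk2, 1.87 for Plk2 over Plk3, 2.35 for Plk3 over Plk4 and 3.43 for Plk4 over Plk5. With a pseudocount of 1 the last 2 were 2.21 and 0.80.

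**Figure D1:**
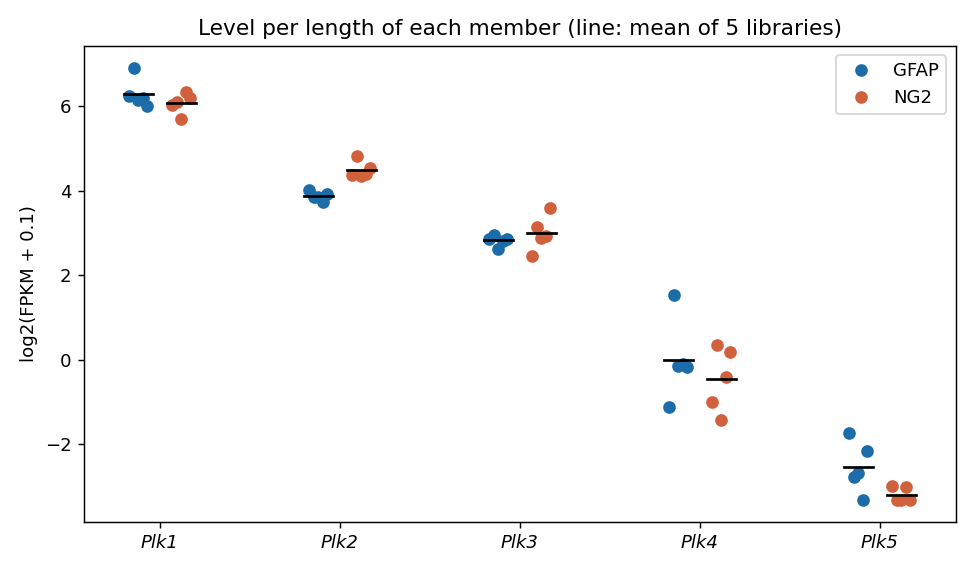
Levels of the 5 kinases on a log2(FPKM + 0.1) axis, with 1 point for each library (blue GFAP, orange NG2) and a line at the mean of the 5 libraries of a group. The members fall in steps from Plk1 to Plk5, and the ranges of neighbours over the 10 libraries are separate.

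Plk1, the mitotic kinase (ENSMUSG00000030867, chromosome 7, 122159439 to 122169873, plus strand, GRCm38, 10 exons in its first-numbered transcript), was read at 168, 267, 156, 163 and 143 CPM in GFAP replicates 1 to 5 and at 144, 150, 115, 179 and 161 CPM in NG2 replicates 1 to 5. CPM are read counts scaled to the TMM-adjusted depth of the library. The groups overlapped, and the highest value by a wide margin was GFAP replicate 2. The means were 179 ± 50.01 CPM in GFAP and 149.9 ± 23.7 CPM in NG2 libraries (SD, n = 5), a log2 fold change of -0.26 (NG2 minus GFAP, SE 0.16, edgeR). Without GFAP replicate 2 the fold change was -0.068. Voom with sample weights gave 0.044, so Plk1 had no settled direction between the populations. Gm44985, a gene on the opposite strand that lies within Plk1, had at most 17 reads in a library.

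Plk4, the centriole kinase (ENSMUSG00000025758, chromosome 3, 40800019 to 40816883, plus strand, 16 exons), was far less abundant and more uneven. It was read at 2.50, 19.5, 5.54, 5.81 and 5.45 CPM in GFAP replicates 1 to 5 and at 2.73, 8.13, 1.88, 4.52 and 7.16 CPM in NG2 replicates 1 to 5. Again GFAP replicate 2 was the highest, with 310 reads where the other libraries had 27 to 127. The means of 7.75 ± 6.69 and 4.88 ± 2.72 CPM gave a log2 fold change of -0.67 (SE 0.50, edgeR), which became 0.024 without GFAP replicate 2. The spread of Plk4 between libraries, after the group difference and counting error, was a biological coefficient of variation of 0.54, above that of 96.0% of the 500 tested genes nearest to it in level. For Plk1 the value was 0.18, above 95.2% of its 500 neighbours, while Plk2 (0.12) and Plk3 (0.21) stood above 43.8% and 69.2% of theirs.

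In GFAP replicate 2 other genes of the cell cycle were high as well. The summed level of 15 S phase genes was 4320 CPM there and 2276 to 2375 CPM in the other GFAP libraries, and that of 25 genes that work with Plk1 in mitosis was 4124 CPM against 2379 to 2679 CPM. Summed levels of 8 radial glia markers were 2006 CPM in that library and 1402 to 1527 CPM in the others of its group, and those of 7 neuron markers were 3914 CPM against 4767 to 5137 CPM. The part of cell composition in the high Plk1 and Plk4 values was not tested.

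**Figure D2:**
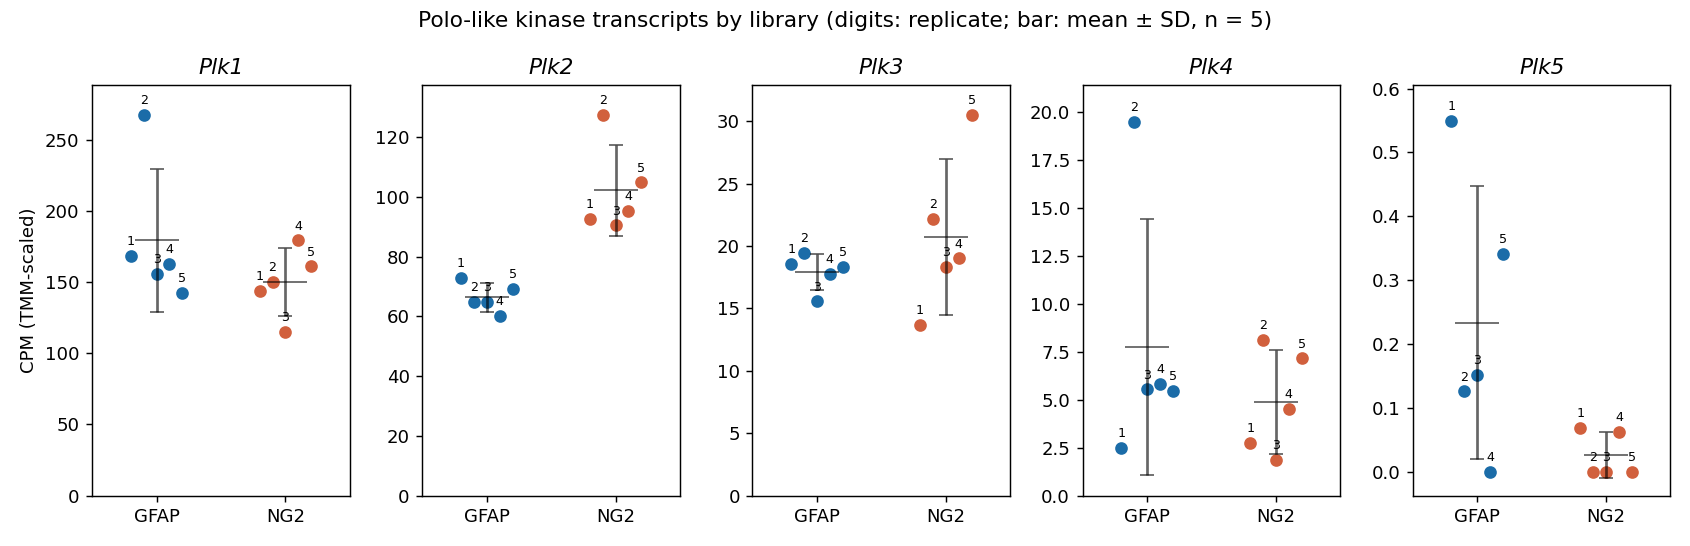
CPM of each kinase by library, with the replicate number beside each point and the mean ± SD of the 5 libraries of a group. Plk2 separates the groups, GFAP replicate 2 is the highest library for Plk1 and Plk4, NG2 replicate 5 is the highest for Plk3, and Plk5 stays below 0.6 CPM.

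Plk2, the early response member that acts at synapses (ENSMUSG00000021701, chromosome 13, 110395046 to 110400844, plus strand, 14 exons), was read at 72.9, 64.9, 64.9, 60.3 and 69.2 CPM in GFAP replicates 1 to 5. In NG2 replicates 1 to 5 it stood at 92.8, 128, 90.5, 95.3 and 105 CPM. The lowest NG2 library was above the highest GFAP library, and NG2 replicate 2 was the highest. The means of 102 ± 15.2 and 66.4 ± 4.79 CPM made a 1.54-fold difference, or 0.62 on the log2 scale (SE 0.11, edgeR). This is the value that led to the choice of the family. Over the 10 fits that left out 1 library the log2 fold change ranged from 0.53 to 0.67, and without both GFAP replicate 2 and NG2 replicate 5 it was 0.60. It no longer passed an adjusted p of 0.05 in 8 of those 10 fits, and still passed in the fits without NG2 replicate 1 or NG2 replicate 5. In the authors' deposited table the log2 fold changes are -0.25 for Plk1, 0.63 for Plk2, 0.22 for Plk3, -0.66 for Plk4 and -3.13 for Plk5.

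Plk3, the other early response member (ENSMUSG00000028680, chromosome 4, 117128655 to 117133963, minus strand, 15 exons), did not separate the groups. GFAP replicates 1 to 5 stood at 18.5, 19.5, 15.6, 17.8 and 18.3 CPM, and NG2 replicates 1 to 5 at 13.6, 22.2, 18.3, 19.0 and 30.5 CPM. The GFAP libraries were close together, and the NG2 libraries held both the lowest value of all (replicate 1) and the highest (replicate 5). The log2 fold change was 0.21 (SE 0.18, edgeR), and 0.030 without NG2 replicate 5. Its last 84 bases overlap Tctex1d4 on the opposite strand, which had at most 3 reads in a library.

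Plk5 (ENSMUSG00000035486, chromosome 10, 80356459 to 80365489, plus strand, 15 exons) was near the limit of detection and did not reach the expression filter. GFAP replicates 1 to 5 had 9, 2, 2, 0 and 5 reads, and NG2 replicates 1 to 5 had 1, 0, 0, 1 and 0. Reads were thus found in 4 GFAP and 2 NG2 libraries, and a library with 0 reads allows a level of up to 0.169 to 0.210 CPM (3 reads). The groups overlapped in CPM. The ratio of depth-scaled reads, NG2 over GFAP, was 0.107 with an exact 95% interval of 0.0121 to 0.447. That interval treats every read as independent, so it leaves out the spread between libraries and copies made by amplification. GFAP replicates 1 and 5 held 14 of the 18 GFAP reads.

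Of the 4 kinases tested by edgeR, 1 (Plk2) was past an adjusted p of 0.05 and 1 (Plk2 again) had groups that did not overlap. Among all 16187 genes tested, 0.148% were past the threshold (24 genes, with 0.0741% higher and 0.0741% lower in NG2), and 3.28% did not overlap (1.52% with all NG2 values above all GFAP values). By DESeq2 and by voom with sample weights Plk2 was likewise the only 1 of these 4 past the threshold, against 2.29% and 8.9% of genes. With library size as the only scaling, or with the replicate block, edgeR no longer took Plk2 past the threshold. Leaving out 1 library left 3 to 22 genes past the edgeR threshold, except NG2 replicate 5, without which there were 117. Since the family was chosen on that contrast, nothing is read from these counts. The level of Plk1 relative to Plk2, which follows from the same values, was 4.21 to 8.40 times on the FPKM scale in GFAP libraries and 2.40 to 3.85 times in NG2 libraries. Plk2 made up 9.87% to 17.4% of the family's summed FPKM in GFAP libraries and 19.1% to 26.6% in NG2 libraries.

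**Figure D3:**
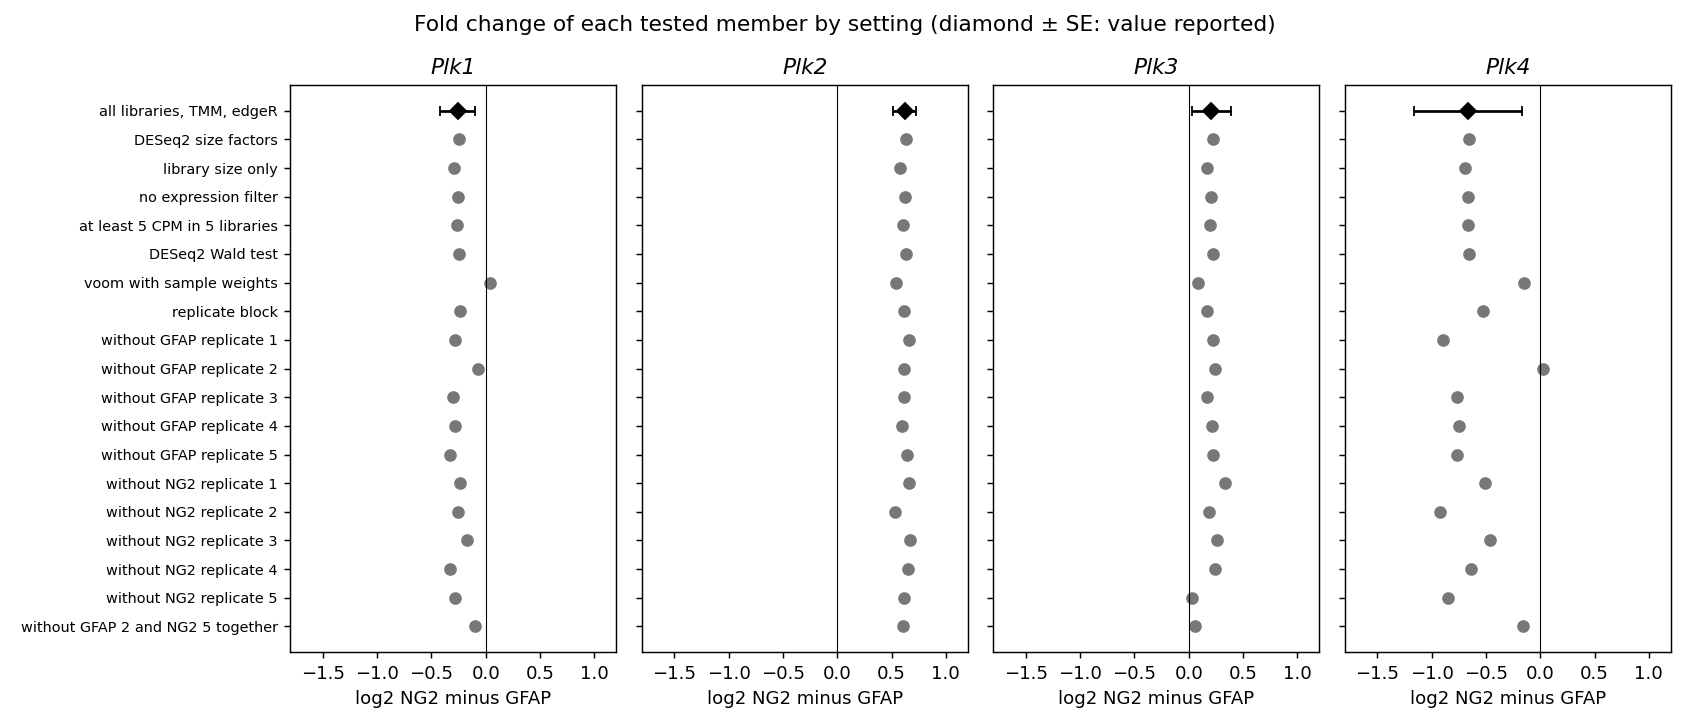
Log2 fold change (NG2 minus GFAP) of the 4 tested kinases under each setting, with the reported value as a diamond with its SE. Plk2 stays between 0.53 and 0.67, Plk4 moves from -0.67 to 0.024 without GFAP replicate 2, and Plk3 moves from 0.21 to 0.030 without NG2 replicate 5.

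Values of cell type markers in the same libraries are given beside the Plk2 difference. The share of all genes at an unadjusted p under 0.05 by edgeR was 12.8%. All 7 neuron markers had a positive fold change (median 0.26 on the log2 scale, against -0.0097 for all genes tested, and 0.15 without NG2 replicate 3), with summed levels of 3914 to 5137 CPM in GFAP and 4840 to 6775 CPM in NG2 libraries. By edgeR 0 of the 7 passed (3 at an unadjusted p under 0.05, 2 higher by DESeq2, 3 higher by voom with sample weights). Neurod6, a transcription factor of cortical neurons, and Tubb3, the neuronal tubulin, had log2 fold changes of 0.26 (SE 0.14) and 0.35 (SE 0.10). They were named for the highest mean levels, and the 7 markers ran from 0.014 to 0.62. The 8 radial glia markers had negative fold changes (median -0.37, and -0.18 without GFAP replicate 2), with summed levels of 1402 to 2006 CPM in GFAP and 868 to 1561 CPM in NG2 libraries. By edgeR 0 of them passed (3 at an unadjusted p under 0.05, 1 lower by DESeq2, 0 by voom). Fabp7, a fatty acid binding protein of radial glia, had -0.041 (SE 0.19) and Vim, their intermediate filament, -0.24 (SE 0.15). Both were named for the highest mean levels, and the 8 markers ran from -0.66 to -0.041. All 8 microglia markers had a positive fold change (median 0.90, 0 passed by edgeR, 0 at an unadjusted p under 0.05, 0 by DESeq2 and by voom), with sums of 31.0 to 120 CPM in GFAP and 17.7 to 242 CPM in NG2 libraries, and the median was 0.38 without NG2 replicate 1. C1qb, a complement gene of microglia, stood at 22.3 ± 14.6 CPM in GFAP libraries against 45.4 ± 33.8 in NG2, and their growth factor receptor Csf1r at 10.6 ± 6.42 CPM in GFAP libraries against 23.2 ± 17.6 in NG2. No marker of these 3 lists was at 0 in all libraries. The part of cell composition in the Plk2 difference was not tested.

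The remaining marker lists were smaller. Of 4 intermediate progenitor markers 1 was positive and 3 were negative (median -0.11, and -0.071 without NG2 replicate 5, -0.024 by voom; 0 passed by edgeR, 1 at an unadjusted p under 0.05, 1 lower by DESeq2 and 1 by voom). The transcription factor genes Neurog2 and Eomes stood at 586 ± 89.5 CPM in GFAP libraries against 508 ± 25.1 in NG2 and at 248.6 ± 8.66 CPM in GFAP libraries against 188 ± 22.3 in NG2. Of 4 tested oligodendrocyte precursor markers 1 passed by edgeR, Cspg4 itself. The median of the 4 was 0.57, but 0.14 without NG2 replicate 5, 0.093 with the replicate block and -0.095 by voom. The median was -0.053 for 5 interneuron markers (0 passed by edgeR, 0 at an unadjusted p under 0.05, 0 by DESeq2 and by voom), among them Dlx1 at 45.1 ± 8.7 CPM in GFAP libraries against 41.5 ± 18.2 in NG2 and Dlx2 at 35.4 ± 9.04 CPM in GFAP libraries against 37.2 ± 18 in NG2. The interneuron median also had no settled direction, from -0.21 without NG2 replicate 5 to 0.14 without NG2 replicate 2 or NG2 replicate 3, and was 0.15 by voom. Endothelial and meningeal fibroblast markers were low, with medians of -0.28 over 3 and -1.05 over 4 genes, and 0 passed by edgeR, DESeq2 and voom (0 and 1 at an unadjusted p under 0.05). The endothelial median had no settled direction, at 0.53 without GFAP replicate 1, 0.055 without NG2 replicate 5 and 0.43 by voom. The meningeal median was -0.59 by voom. Cldn5 and Kdr of endothelium stood at 3.51 ± 2.67 CPM in GFAP libraries against 4.1 ± 3.58 in NG2 and at 2.07 ± 2.19 CPM in GFAP libraries against 1.6 ± 1.33 in NG2. The matrix genes Dcn and Col1a2 stood at 3.53 ± 0.811 CPM in GFAP libraries against 2.32 ± 1.72 in NG2 and at 3.12 ± 1.52 CPM in GFAP libraries against 1.13 ± 0.916 in NG2.

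The genes that work with Plk1 in mitosis were expressed throughout, with log2 fold changes below 0 for 24 of 25 and above 0 for 1 (median -0.25). By edgeR 0 of 25 passed (7 at an unadjusted p under 0.05, 0 by DESeq2, 1 lower by voom with sample weights), and without GFAP replicate 2 the median was -0.081. Ccnb1, the mitotic cyclin, stood at 429 ± 135 CPM in GFAP and 364 ± 39.6 CPM in NG2 libraries, and Tpx2, a spindle protein that activates Aurora A, at 231 ± 51.9 and 181 ± 20.5 CPM. Aurka, the kinase that activates Plk1, stood at 155 ± 37.4 and 124 ± 17.2 CPM, and its cofactor Bora at 70.8 ± 12.3 and 54.8 ± 11.6 CPM. Aurka and Bora were named for their roles after their values were seen. The 15 S phase genes all had negative fold changes (median -0.18, 0 passed by edgeR, 0 at an unadjusted p under 0.05, 0 by DESeq2 and by voom). Among them the ribonucleotide reductase subunit Rrm2 stood at 528 ± 203 and 481 ± 37.1 CPM and the replicative helicase subunit Mcm7 at 413 ± 97.0 and 365 ± 46.9 CPM. Without GFAP replicate 2 the S phase median was 0.0078.

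Partners of Plk4 in centriole duplication were also expressed. Fold changes were below 0 for 10 of 14 and above 0 for 4 (median -0.15, and -0.038 without NG2 replicate 3), and 0 passed by edgeR (2 at an unadjusted p under 0.05, 0 by DESeq2, 1 lower by voom). Fbxw11 and Btrc, ubiquitin ligase subunits that mark Plk4 for degradation, stood at 147 ± 11.7 and 70.2 ± 5.94 CPM in GFAP and 154 ± 32.5 and 73.6 ± 10.9 CPM in NG2 libraries. The Plk4 receptor Cep152 stood at 17.3 ± 1.72 and 16.3 ± 2.05 CPM. Stil, which binds and activates Plk4, stood at 27.8 ± 7.62 and 24.3 ± 9.44 CPM, and the cartwheel protein Sass6 at 22.3 ± 4.06 and 18.0 ± 3.96 CPM. Cep152, Stil and Sass6 were named for their roles after their values were seen.

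Known targets and partners of Plk2 at the synapse were split in direction. Among the 6 tested, 3 were above 0 and 3 below (median 0.040, which became -0.0062 with library size as the only scaling and -0.091 by voom), and 0 passed by edgeR (0 at an unadjusted p under 0.05, 0 by DESeq2 and by voom). Nsf, the membrane fusion ATPase, stood at 87.9 ± 4.30 CPM in GFAP and 93.9 ± 14.6 CPM in NG2 libraries. Sipa1l1, the Rap regulator that Plk2 marks for degradation, stood at 35.6 ± 4.50 and 27.7 ± 8.20 CPM.

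Other early response genes were split as well. Of 23 activity-induced genes 17 were tested, 9 above 0 and 8 below (median 0.13), and 0 passed by edgeR (1 at an unadjusted p under 0.05, 0 by DESeq2 and by voom). Egr2 and Egr4 had 0 reads in all libraries. With no expression filter the median was -0.089, so the list had no settled direction. Gadd45g, a stress and differentiation gene, stood at 333 ± 23.7 CPM in GFAP and 285 ± 37.9 CPM in NG2 libraries, and the phosphatase gene Dusp1 at 118 ± 16.2 and 133 ± 29.0 CPM. Fos and Egr1, named after their values were seen, varied widely, Fos at 23.8 ± 16.5 and 15.6 ± 5.16 CPM and Egr1 at 17.3 ± 19.01 and 16.2 ± 12.96 CPM. Plk2 and Plk3 are also known p53 targets. Of 15 p53 target genes tested, 10 were above 0 and 5 below (median 0.13, 0.22 without GFAP replicate 2 and 0.076 without NG2 replicate 2), and 0 passed by edgeR (2 at an unadjusted p under 0.05, 0 by DESeq2, 1 higher by voom). Bax, which promotes cell death, stood at 156 ± 8.76 and 185 ± 22.8 CPM, and the stress gene Sesn1 at 136 ± 15.6 and 149 ± 15.8 CPM.

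Whether the kinases varied together from library to library was measured on deviations of log2 CPM from the group mean, which leave out the difference between the groups. Of 6 pairs among the 4 tested members none passed after adjustment. The closest was Plk1 with Plk4, with Pearson r = 0.75 (exact permutation p = 0.0424, Benjamini-Hochberg adjusted 0.254) and Spearman rho = 0.72 (exact permutation p = 0.0297, adjusted 0.132) over 10 libraries. Without the 2 libraries farthest from the median of Plk1 (GFAP 2 and NG2 4) r was 0.54 (exact permutation p = 0.318). Without GFAP 2 alone it was 0.46 and without NG2 4 alone 0.79, so the size of r rests on GFAP 2. Plk2 with Plk3 had r = 0.47 (exact permutation p = 0.338, adjusted 0.485) and rho = 0.71 (exact permutation p = 0.0440, adjusted 0.132), and r = 0.65 without GFAP 1 and NG2 2. The pair that joins the mitotic to the synaptic kinase, Plk1 with Plk2, had r = 0.073 and rho = 0.27 (exact permutation p = 0.824 and 0.465). For this pair r was 0.46 without GFAP 2 and NG2 4 (exact permutation p = 0.415), 0.22 without GFAP 2 and -0.15 without NG2 3. The remaining 3 pairs had r of 0.29 to 0.51, with exact permutation p of 0.106 to 0.404.

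Each kinase was then set beside the score of a gene list of its own role, in 5 relations chosen after the values were seen. The adjustment covers these 5 only and not their choice, so the p-values of these relations are descriptive. A score is the mean over list members of the log2 deviation from the gene's mean. Plk1 varied with the mitosis list, with r = 0.92 (exact permutation p = 0.00708, adjusted over the 5 relations 0.0354) and rho = 0.85 (exact permutation p = 0.0157, adjusted 0.0392). Without GFAP 2 and NG2 4 r was 0.67 (exact permutation p = 0.179) and without GFAP 2 alone it was 0.76 (exact permutation p = 0.0563), and without NG2 4 alone it was 0.92. Over the 10 runs that left out 1 library, r ranged from 0.76 to 0.97 and the adjusted call was lost in 5, those without GFAP 2, NG2 1, NG2 3, NG2 4 or NG2 5. Plk4 had r = 0.68 with the centriole list (exact permutation p = 0.0399, adjusted 0.0666, rho = 0.68 with p = 0.0473, adjusted 0.0788), and r = 0.70 without GFAP 1 and GFAP 2. Without GFAP 2 alone r was 0.61 (exact permutation p = 0.110), and without GFAP 2 and NG2 5 it was 0.54 (exact permutation p = 0.248). With 1 library left out r ranged from 0.56 to 0.75. With the S phase list Plk4 had r = 0.71 (exact permutation p = 0.0544, adjusted 0.0680, rho = 0.42 with p = 0.258, adjusted 0.258), which was 0.32 without GFAP 2. Without GFAP 2 and NG2 5 together r was 0.012 (exact permutation p = 0.995).

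Plk3 ran opposite to the activity-induced list, with r = -0.71 (exact permutation p = 0.0169, adjusted 0.0424) and rho = -0.75 (exact permutation p = 0.0133, adjusted 0.0392). Without NG2 1 and NG2 5 r was -0.85 (exact permutation p = 0.0167), without NG2 5 alone -0.44, and without GFAP 2 and NG2 5 -0.41 (exact permutation p = 0.111). With 1 library left out, the adjusted call was lost in 6 of 10 runs. Plk2 had r = -0.31 and rho = -0.43 with the same list (exact permutation p = 0.406 and 0.222, adjusted 0.406 and 0.258), and r = -0.46 without GFAP 1 and NG2 2.

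**Figure D4:**
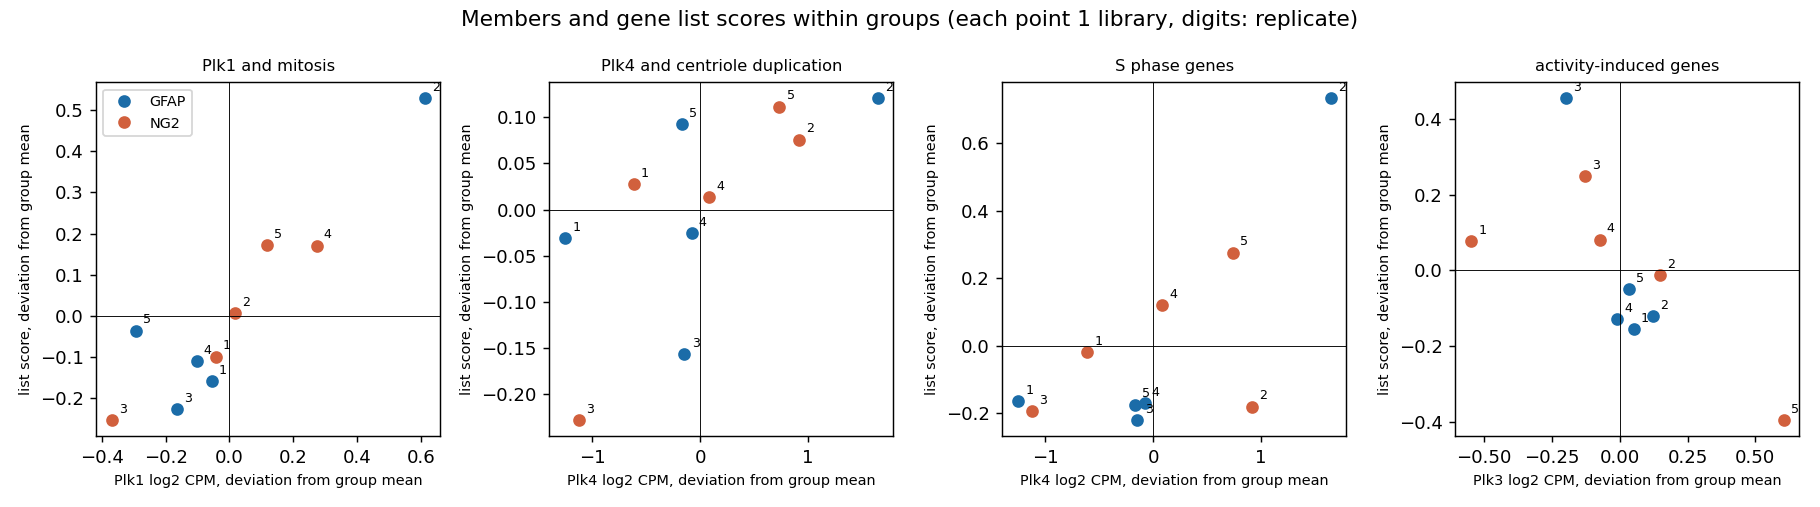
Deviation of a kinase's log2 CPM from its group mean (x axis) against the deviation of a list score (y axis), with 1 point for each library and its replicate number. Plk1 follows the mitosis list, with GFAP replicate 2 at the far end, and Plk3 runs opposite to the activity-induced list, with NG2 replicate 5 at the far end. With 1 library left out, the adjusted call was lost in 5 of 10 runs for Plk1 and in 6 of 10 for Plk3. Plk2 with the activity-induced list (r = -0.31) is not shown.

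The genes whose library pattern was most like each kinase were sought among 10459 other protein-coding genes with a mean of at least 5 CPM, again on deviations from the group means over 10 libraries. The r values are descriptive. Those closest to Plk1 were Uhrf1 (r = 0.99), which maintains DNA methylation at replication, the replicative helicase subunit Mcm2 (0.97) and Mybl2 (0.97), a transcription factor of cycling cells. These stayed at 0.97, 0.91 and 0.90 without GFAP replicate 2. Closest to Plk2 were Zfp764 (r = 0.96), Sgpl1 (0.95), the sphingosine phosphate lyase, and Tada2b (0.92), an adaptor of histone acetylation complexes. For Plk3 they were Casc3 (0.98), a subunit of the exon junction complex, the palmitoyltransferase Zdhhc7 (0.97) and the glucosidase Mogs (0.97), at 0.95, 0.94 and 0.93 without NG2 replicate 5. For Plk4 they were 9430015G10Rik (0.94), the copper transporter Slc31a1 (0.93) and the actin regulator Cap1 (0.92). Without GFAP replicate 2 these stood at 0.89, 0.88 and 0.94. The number of genes with r above 0.9 was 42 for Plk1, 11 for Plk2, 69 for Plk3 and 7 for Plk4. How many would pass that value by chance was not computed.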

How the data were processed

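Per the file headers, the deposited table holds read counts and FPKM per gene for the 10 libraries, and the authors' comparison of the groups as a log2 fold change with p-value columns, made with a tool not named here. Per the submitters' processing notes, HISAT2 and featureCounts 1.5.0-p3 were used on GRCm38.p6; the strand setting was not given in the sources used here, nor was the annotation release. Per the labels' protocols, RNA was amplified with SMARTer chemistry and enriched for poly(A), with no molecular identifiers mentioned. Reads copied from the same molecule are then not told apart, so intervals on counts may be too narrow even for counting error.

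From the deposited counts, edgeR 4.0.16 (R 4.3.3) fitted a quasi-likelihood model with TMM scaling and its default filter over all genes, with Benjamini-Hochberg adjustment. On simulated counts, with 16197 genes run, it recovered 63.9% of the 2-fold and 89.4% of the 4-fold changes planted in a sample of genes. Apart from these changes all simulated libraries shared a common profile, so no outlying library such as NG2 replicate 5 was simulated. Fold changes are NG2 minus GFAP. Log2 CPM used a prior count of 2. Correlations used all 14400 permutations of libraries within groups. Alternatives were DESeq2 1.42.0, voom (limma 3.58.1), other scalings, filters, pseudocounts and lengths, and leaving out libraries. RefSeq promoters were matched by gene symbol for 5 of 5 members, and each window except that of Plk4 shared a stretch with the GENCODE transcript.

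The members, the 14 gene lists (144 symbols) and the tests were chosen with earlier results of these data known. The rule for named genes took the 5 members, up to 3 list genes past the threshold or else the 2 with the highest mean CPM, and the 3 closest patterns for each tested member. Genes named outside it are marked. For 1 gene of the Plk2 target list the values are not reported here. Leaving out GFAP 2 and NG2 5 together, and the other lengths, were chosen after seeing the data.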

Additional observations from a re-analysis of the deposited data

Results flagged for a closer look

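Among 8 sets of 5 values (4 tested kinases in 2 groups), 2 held a library far from the rest, where chance flags about 1 set in 20. Plk1 stood at 267 CPM in GFAP replicate 2, and its gap to the next library was 0.795 of the group's range, against a critical value of 0.71. Plk4 stood at 19.5 CPM in the same library, with a gap of 0.805 of the range. As both values come from 1 library, they are not independent.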

How the results depend on the processing

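The genes past the threshold numbered 24 by edgeR, 95 with no expression filter (58 higher, 37 lower), 327 by DESeq2 (199 higher, 128 lower), 1441 by voom with sample weights (584 higher, 857 lower), 20 with library size alone (8 higher, 12 lower) and 263 without GFAP 2 and NG2 5 together (109 higher, 154 lower), and ranged from 3 to 117 when 1 library was left out. Of the genes of the 14 lists, 1 of 135 tested passed by edgeR and 2 of 142 with no expression filter. With at least 5 CPM in 5 libraries 0 of 109 passed, and by DESeq2 5 of 142. By voom with sample weights 8 of 135 passed, and 3 of 135 without GFAP 2 and NG2 5. With 1 library left out 1 to 2 passed. The shares over all genes were 0.148% by edgeR, 2.29% by DESeq2 and 8.9% by voom. Over all genes, 95 of 31106 passed with no expression filter and 35 of 11330 with at least 5 CPM in 5 libraries. Without GFAP 2 and NG2 5 together 263 of 16288 passed. Nothing is read from the list counts. The cause of the shifts in these counts between settings was not tested. Same-numbered libraries correlated at -0.02 to 0.08 on deviations from the group means, and 1 of 5 libraries correlated best with its own number. Such weak correlations cannot show whether same-numbered libraries were collected together. With the replicate block 1 gene and 0 list genes passed, and Plk2 stood at 0.61 and no longer passed (adjusted p of 0.158, edgeR). Plk1 turned to 0.044 by voom. With 1 library left out Plk4 ranged from -0.92 to 0.024. With 1 library left out, r ranged from -0.15 to 0.22 for Plk1 with Plk2 and from -0.0028 to 0.60 for Plk2 with Plk4. The 4 level differences kept their direction and their p under 0.05 in every alternative run. By scaling with library size alone Plk2 was at 0.58 and no longer past the threshold. Plk5, with 0 to 9 reads in a library, is close to the 3-read floor.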
